A study of Mus musculus with 14 samples.

Results

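Genes that the oocyte uses at fertilization were followed in single oocytes with and without maternal KDM1A. They were chosen by name, for their function, with Cd9 for gamete fusion, Astl for the cortical granules, and Itpr1, Stim1, Orai1, Trpm7, Atp2b1, Atp2a2 and Camk2g for calcium. They are 9 of the 24064 genes in the count table, each found there under its own symbol. A further 68 genes of the same processes, listed by role, give the setting around them.

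The samples were ovulated oocytes, each sequenced alone by a poly(A)-primed method that reads up to 3 kb from the 3' end of a transcript. The control group held 4 wt/wt oocytes of strain C57BL/6J, called wt1, wt3, wt4 and wt5, and 1 f/f oocyte of a mixed B6;129 strain, called C3, which carries the conditional Kdm1a allele without cre. The mutant group held 5 mko/mko oocytes of the mixed B6;129 strain, called D1, D2, D3, D4 and D7. These come from Kdm1a f/f::Zp3cre females, in which cre is driven by the Zp3 promoter in the growing oocyte and removes the first exon of Kdm1a. Females were 4 to 8 weeks old and superovulated where embryos were collected, and the age is not stated for oocytes. No treatment is listed in the labels. C3, D3, D4 and D7 are each the sum of 2 libraries that share a name. In each pair 1 name ends in DNA, which neither the labels nor the methods explain, and the other oocytes are 1 library each. The sample descriptions give the libraries of such a pair an oocyte number each, so the 5 mutant and 1 f/f oocytes counted here rest on reading a shared name as 1 oocyte. Levels are given in CPM, the read count of a gene scaled to a common library size after adjustment by TMM (trimmed mean of M values), and values per oocyte are listed throughout in the order wt1, wt3, wt4, wt5 and D1, D2, D3, D4, D7.

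When a sperm fuses with an oocyte held at metaphase of meiosis II, it delivers a phospholipase C that makes inositol trisphosphate, and this opens receptor channels on the endoplasmic reticulum. Calcium then rises and falls in repeated waves, which pumps end and which entry through the plasma membrane keeps going by refilling the store. The waves drive the release of the cortical granules, whose protease hardens the zona pellucida against further sperm, and they activate a kinase that lets the oocyte leave meiosis.

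Mutant oocytes carried more Cd9, Trpm7 and Camk2g transcript than control oocytes and less Itpr1 and Atp2b1. The rise was 5.76-fold for Cd9, 11.6-fold for Trpm7 and 6.04-fold for Camk2g, while Itpr1 was 2.37-fold and Atp2b1 4.42-fold lower. Astl and Atp2a2, the genes with the highest levels, did not pass the test, and Stim1 and Orai1 were too low to be tested. A gene is called here at an adjusted p under 0.05, from edgeR's quasi-likelihood test adjusted by Benjamini-Hochberg over the 9198 genes tested, with a log2 fold change of at least 1 in either direction. By that rule 5 of the 7 genes that passed the filter on low counts were called, beside 25.9% of all genes tested. Of these, 3 were higher, a direction called in 14.7% of all genes, and 2 were lower, called in 11.2%. In all 5 the control and mutant oocytes did not overlap, which was so for 16.2% of all genes. These calls rest on the 4 wt/wt and the f/f oocyte together. Against the f/f oocyte alone, whose own spread is unmeasured, the log2 fold changes were 3.73 for Cd9, 2.53 for Trpm7 and 2.48 for Camk2g. They were -1.06 for Itpr1 and -1.64 for Atp2b1, the same directions. Over all genes tested, the median of the log2 fold changes was 0.17.

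**Figure D1:**
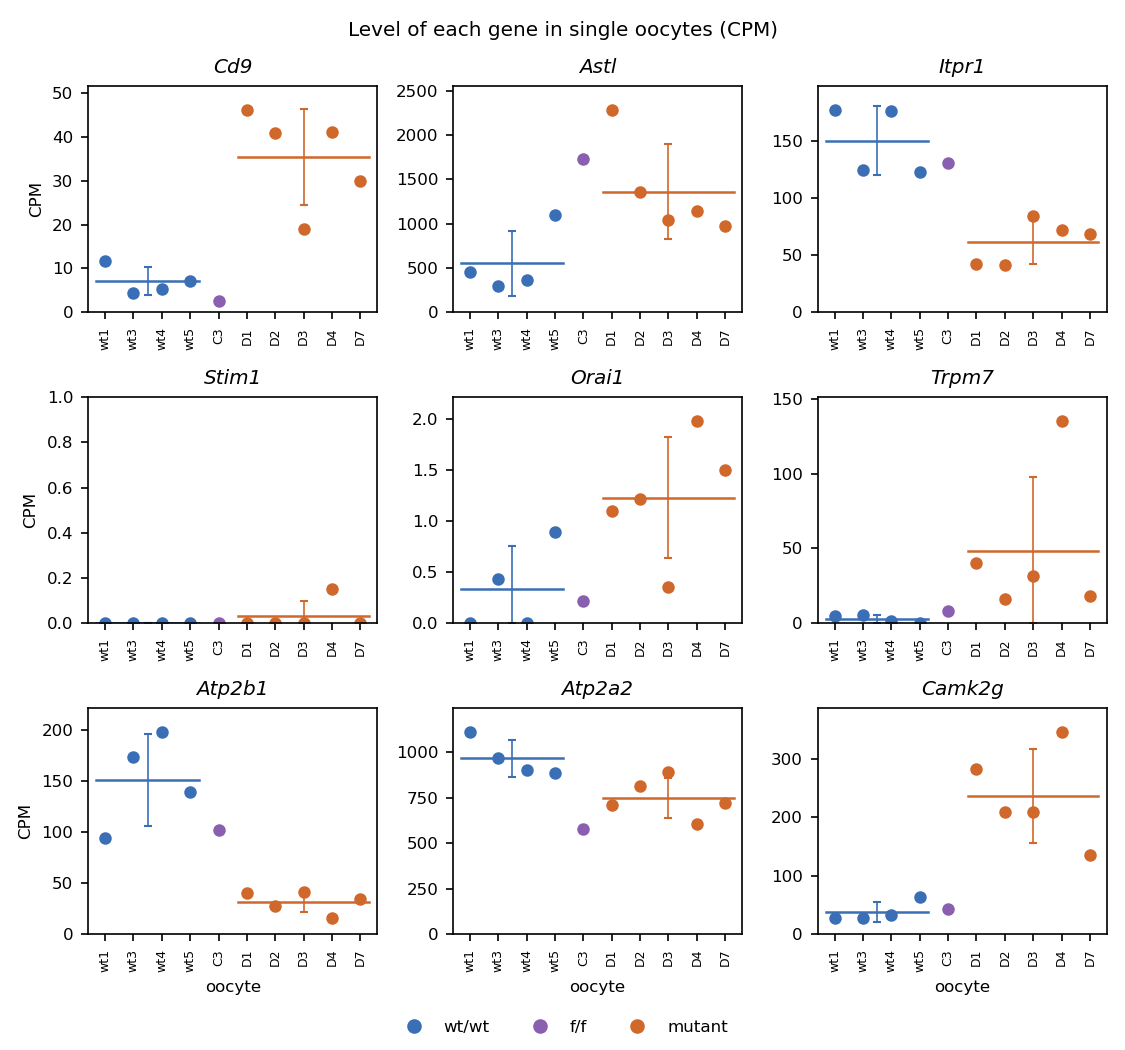
Level of the 9 genes in each oocyte, in CPM over library sizes adjusted by TMM, on a linear axis from 0. Points are single oocytes, coloured by genotype, and horizontal lines with bars are the mean and SD of the 4 wt/wt and of the 5 mutant oocytes, with bars cut at 0. Mutant oocytes sit between 18.9 and 46.1 for Cd9 and between 135 and 346 for Camk2g, above all controls, and between 16.1 and 41.7 for Atp2b1, below all controls.

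Promoters are shown for 3 of the called genes, Cd9 and Trpm7, which rose, and Atp2b1, which fell, because they show how unlike the start regions of genes that moved together or apart can be. Of the 9 genes, 6 had an entry in the RefSeq promoter table, with 8 promoters between them, each from 250 bases before to 50 after a transcription start. The sequences are from GRCm38.p6, written 5' to 3' on the strand of the gene, with CACGTG and CAGCTG, 2 forms of the E-box that helix-loop-helix factors bind, in capitals. The Cd9 promoter is at chr6:125494711-125495010 on the minus strand, the Trpm7 promoter at chr2:126876212-126876511 on the minus strand, and the upstream of the 2 Atp2b1 promoters at chr10:98914392-98914691 on the plus strand.
Cd9: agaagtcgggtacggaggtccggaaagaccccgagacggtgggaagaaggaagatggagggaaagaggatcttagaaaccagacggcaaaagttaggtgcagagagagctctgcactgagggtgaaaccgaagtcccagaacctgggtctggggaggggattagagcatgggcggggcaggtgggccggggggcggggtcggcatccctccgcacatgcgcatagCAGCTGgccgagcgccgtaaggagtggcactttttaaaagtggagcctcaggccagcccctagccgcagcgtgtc
Trpm7: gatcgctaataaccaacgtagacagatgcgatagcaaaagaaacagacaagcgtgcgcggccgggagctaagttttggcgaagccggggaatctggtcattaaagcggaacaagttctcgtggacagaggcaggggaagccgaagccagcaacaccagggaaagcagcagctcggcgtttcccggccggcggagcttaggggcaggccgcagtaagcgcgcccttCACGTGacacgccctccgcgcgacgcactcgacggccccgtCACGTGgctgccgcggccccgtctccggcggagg
Atp2b1: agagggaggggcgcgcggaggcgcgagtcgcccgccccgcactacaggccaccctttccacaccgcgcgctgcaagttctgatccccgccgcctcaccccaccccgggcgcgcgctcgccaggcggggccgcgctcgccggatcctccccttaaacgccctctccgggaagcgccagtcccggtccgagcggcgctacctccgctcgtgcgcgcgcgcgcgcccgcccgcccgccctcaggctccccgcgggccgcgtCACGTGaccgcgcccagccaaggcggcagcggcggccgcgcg

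CACGTG, which reads the same on both strands, was found 2 times in the Trpm7 promoter and 1 time in the Atp2b1 promoter printed above, and it occurs in 7.15% of the 32851 promoters of the table. CAGCTG, also its own complement, was found 1 time in Cd9 and 1 time in Orai1, and it occurs in 16.3% of promoters. TAATTG, the motif of the oocyte homeobox factor NOBOX, was searched on both strands and was in none of the 8, against 8% of all promoters. No match overlapped another. The genes also differed in CG content. The printed Atp2b1 promoter held 54 CG dinucleotides, a number above that of 99.7% of all promoters, Trpm7 held 35 and Cd9 18, whereas the 2 Astl promoters held 5 and 1 and the median of all promoters was 7. The other Atp2b1 promoter had no CACGTG and 45 CG dinucleotides, and the genes too low to be tested, Stim1 with 38 and Orai1 with 36, had as many as Trpm7 or more.

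Kdm1a itself had 27 to 669 counts in controls and 0 to 10 in mutants, a log2 fold change of -5.02 (edgeR adjusted p = 0.0011) that was -4.05 without C3 and -5.97 without D7, although a message lacking only the deleted exon would still yield reads. Total counts were 1375187 to 1892015 in wt/wt oocytes, 6928548 in C3 and 2016701 to 6926076 in the mutants, so 3 counts correspond to 0.456 to 1.83 CPM. The wt/wt oocytes differ from all others in strain and in the naming scheme of their libraries, so for every result below genotype and strain cannot be told apart except through C3. All 12 oocyte markers had counts, 8 of them were called higher in mutants and none lower, and their summed level was 20600 to 35500 CPM in wt/wt, 62100 in C3 and 60000 to 121000 in mutant oocytes. Of 15 cumulus and granulosa cell markers, 8 had no count in any oocyte, Foxl2, Fshr, Amh, Inhba, Inha, Ptx3, Tnfaip6 and Lhcgr. The summed level of that list was 20.6 to 79 CPM in wt/wt, 71 in C3 and 83.5 to 157 in mutant oocytes, and without the aromatase gene Cyp19a1 it was 12.1 to 26, 8.21 and 4.26 to 9.97. Sperm markers summed to 0 to 2.69 CPM in wt/wt, 0 in C3 and 0 to 3.05 in mutant oocytes, and 4 of the 7 had no count. Of 4 blood markers only Cd68 had counts, at most 6.77 CPM. The part of the oocyte and granulosa markers in the results was not tested.

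Cd9 encodes a tetraspanin of the oocyte surface without which sperm bind but rarely fuse. It lies on chromosome 6 of GRCm38 from 125460266 to 125494791 on the minus strand. Its level was 11.6, 4.32, 5.32 and 7.18 CPM in wt/wt oocytes and 2.66 in C3. In the mutants it was 46.1, 40.8, 18.9, 41.1 and 29.9. D3 was the lowest mutant oocyte and still stood above wt1, the highest control. The mean was 6.22 ± 3.43 (SD, n = 5) in controls and 35.3 ± 10.9 (SD, n = 5) in mutants, a log2 fold change of 2.53 with a standard error of 0.47 and a 95% interval of 1.52 to 3.53 (edgeR adjusted p = 0.00184). Cd9 rests on few reads in controls, 10 to 21 counts per oocyte, against 53 to 270 in mutants.

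The 2 other fusion genes listed are Izumo1r, which encodes JUNO, the receptor for the sperm protein IZUMO1, and Cd81, a tetraspanin related to Cd9. Izumo1r had 13 to 23.3 CPM in wt/wt oocytes, 39.1 in C3 and 49.4 to 87.6 in mutants. It was called higher, at 1.65 on the log2 scale (standard error 0.37, edgeR adjusted p = 0.00557). C3 thus lay between the 2 groups for the receptor gene but below both for Cd9. Cd81 had at most 8 counts in an oocyte and was not tested.

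Astl encodes ovastacin, the cortical granule protease that cleaves ZP2 after fertilization. The gene is on chromosome 2 from 127338639 to 127357651 on the plus strand. Its level was 452, 296, 362 and 1100 CPM in wt/wt oocytes, 1730 in C3, and 2280, 1360, 1040, 1140 and 979 in the mutants. Of the wt/wt oocytes, wt1, wt3 and wt4 were below all mutants, whereas wt5 was inside the mutant range and C3 was above all mutants but D1. Astl did not pass the test, with means of 788 ± 618 (SD, n = 5) and 1360 ± 535 (SD, n = 5) and a log2 fold change of 0.79 (95% interval -0.22 to 1.79, edgeR adjusted p = 0.232). The call depended on C3. Without it, that is with wt/wt oocytes alone as control, the log2 fold change was 1.31 (edgeR adjusted p = 0.0298), and against C3 alone it was -0.32. In the 4 oocytes with 2 libraries, the library with the suffix DNA held 0.593 to 0.708 times as large a share of its total counts in Astl as the other, lower in 4 of 4. The same ratio was 0.675 to 1.94 for Cd9, 1.07 to 1.25 for Itpr1, 1.33 to 2.61 for Trpm7, 1.01 to 1.67 for Atp2b1, 0.69 to 0.975 for Atp2a2 and 0.815 to 2.06 for Camk2g, so that Itpr1, Trpm7 and Atp2b1 were higher and Astl and Atp2a2 lower in the DNA library of each of the 4 pairs.

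Of the 16 other genes listed for the cortical granules, 11 were tested, 3 were called higher and none was called lower. That is 27.3%, near the 25.9% of all genes, and their median log2 fold change was -0.29. Nsf, the ATPase that takes used SNARE complexes apart, had 6.54 to 31.4 CPM in wt/wt oocytes, 6.66 in C3 and 43.9 to 643 in mutants, a log2 fold change of 4.58 (standard error 0.68, edgeR adjusted p = 0.00055). Leaving out wt5, the highest control, took it to 5.27. Rab27a, a small GTPase of secretory granules, rose with a log2 fold change of 2.45 (edgeR adjusted p = 0.0284), from 0 to 1.64 CPM in wt/wt and 7.33 in C3 to 5.48 to 29.7 in mutants. C3 lay inside the mutant range, the value was 3.70 without C3, and the call was lost in 7 of 19 alternative settings, among them leaving out wt1, wt3, wt4, D1 or D4. Myo5b, a motor of vesicle transport, rose from 13.8 to 28.7 CPM in wt/wt and 42.2 in C3 to 44.5 to 71.2 in mutants (log2 fold change 1.11, edgeR adjusted p = 0.0364), but its call was lost in 10 of the 19. The SNARE genes Snap25 and Vamp1 had no count.

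Itpr1 encodes the inositol trisphosphate receptor through which the store empties, and it is the main form in the mouse oocyte. It spans chromosome 6 from 108213096 to 108551109 on the plus strand. Levels were 177, 125, 176 and 123 CPM in wt/wt oocytes and 131 in C3. In the mutants they were 42.2, 41.4, 84, 71.9 and 68.3. Controls and mutants did not overlap, with wt5 the lowest control and D3 the highest mutant, and C3 lay inside the wt/wt range. The mean went from 146 ± 27.7 (SD, n = 5) to 61.6 ± 19 (SD, n = 5), a log2 fold change of -1.24 with a standard error of 0.33 and a 95% interval of -1.95 to -0.54 (edgeR adjusted p = 0.0135).

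The related receptor genes were not called. Itpr2 had 47.5, 43.2, 58.9 and 49.8 CPM in wt/wt oocytes, 254 in C3, and 51.6, 32.9, 43.4, 69.1 and 73.8 in mutants, so that C3 was above all other oocytes and wt/wt and mutant oocytes overlapped. Its log2 fold change was -0.75 (95% interval -1.79 to 0.3, edgeR adjusted p = 0.277) and turned to 0.12 without C3, and its difference from that of Itpr1 was not tested. Itpr3 was at most 5.98 CPM in any oocyte and was not called. Per kilobase of transcript, the level of Itpr1 was 2.92 to 4.4 times that of Itpr2 in wt/wt oocytes, 0.969 to 2.29 times in mutants and 0.609 times in C3. With length taken as at most 3 kb, the reach of the cDNA, the ratios were 2.47 to 3.72, 0.819 to 1.93 and 0.515. By either length the ratio did not overlap between wt/wt and mutant oocytes, but C3 was below both.

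Plcz1, which encodes the sperm phospholipase C, had no count in any oocyte. Among the 16 other genes of calcium release, 10 were tested and 2 were called, 20% beside 25.9% of all genes. Ahcyl1 encodes IRBIT, a protein that binds the receptor and competes with inositol trisphosphate. It fell from 19.7 to 35.2 CPM in wt/wt oocytes and 10.4 in C3 to 6.7 to 11 in mutants (log2 fold change -1.48, edgeR adjusted p = 0.0206), with C3 inside the mutant range. The call of Ahcyl1 was lost in 3 of 19 alternative settings, among them leaving out wt4 (log2 fold change -1.32, edgeR adjusted p = 0.0582) and C3 alone as control (log2 fold change -0.23). Calr, which encodes the store's calcium-binding chaperone calreticulin, rose with a log2 fold change of 2.82 (edgeR adjusted p = 0.00789), from 6.47 to 40.8 CPM in wt/wt and 12.7 in C3 to 24.4 to 202 in mutants. Here wt5 stood apart from the other wt/wt oocytes, which had at most 9.4 CPM, and without it the log2 fold change of Calr was 3.64.

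The 3 genes of calcium entry differed widely. Stim1 encodes the sensor that detects an empty store and Orai1 the plasma membrane channel it opens. Stim1, on chromosome 7 from 102267806 to 102437319 on the plus strand, had 1 count over all 10 oocytes, in D4. Orai1, on chromosome 5 from 123015074 to 123030456 on the plus strand, had 0, 1, 0 and 2 counts in wt/wt oocytes, 1 in C3 and 2, 2, 1, 13 and 3 in mutants, that is 0 to 0.897, 0.222 and 0.356 to 1.98 CPM. Both were under or near the level of 3 counts in most oocytes, so that no fold is given, and a difference was not detectable at this depth. In a control oocyte, a count of 0 allows up to 3 counts, or 0.666 to 1.66 CPM.

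Trpm7 encodes a channel for magnesium and calcium fused to a kinase, which carries divalent cations into the oocyte. It is on chromosome 2 from 126791565 to 126876230 on the minus strand. The level was 4.97, 5.61, 1.23 and 0 CPM in wt/wt oocytes, 8.44 in C3 and 40.6, 16.4, 31.3, 135 and 18.4 in mutants. All mutants were above all controls, and D4 was far above the other mutants. Means were 4.05 ± 3.42 (SD, n = 5) and 48.3 ± 49.4 (SD, n = 5), with a log2 fold change of 3.54, a standard error of 0.78 and a 95% interval of 1.9 to 5.18 (edgeR adjusted p = 0.00471). Without D4 the log2 fold change was 2.69 and Trpm7 was still called. C3 lay between the groups.

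Of the 7 other genes of calcium entry, 4 were tested and only Stim2 was called, in the higher direction, 25% beside 25.9% of all genes. Stim2 encodes the sensor that sets basal entry. It had 2.76, 2.16, 1.23 and 1.79 CPM in wt/wt oocytes, 0.888 in C3 and 5.48, 2.44, 4.63, 33.3 and 5.48 in mutants, with a log2 fold change of 2.6 (edgeR adjusted p = 0.019). D2 lay inside the wt/wt range, and without D4 the log2 fold change fell to 1.37 and the call was lost (edgeR adjusted p = 0.152). Orai2 had no count, and Orai3, at 0 to 5.53 CPM in any oocyte, was not called (log2 fold change -0.93, edgeR adjusted p = 0.478), nor was it without D4, where the log2 fold change was -1.67.

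**Figure D2:**
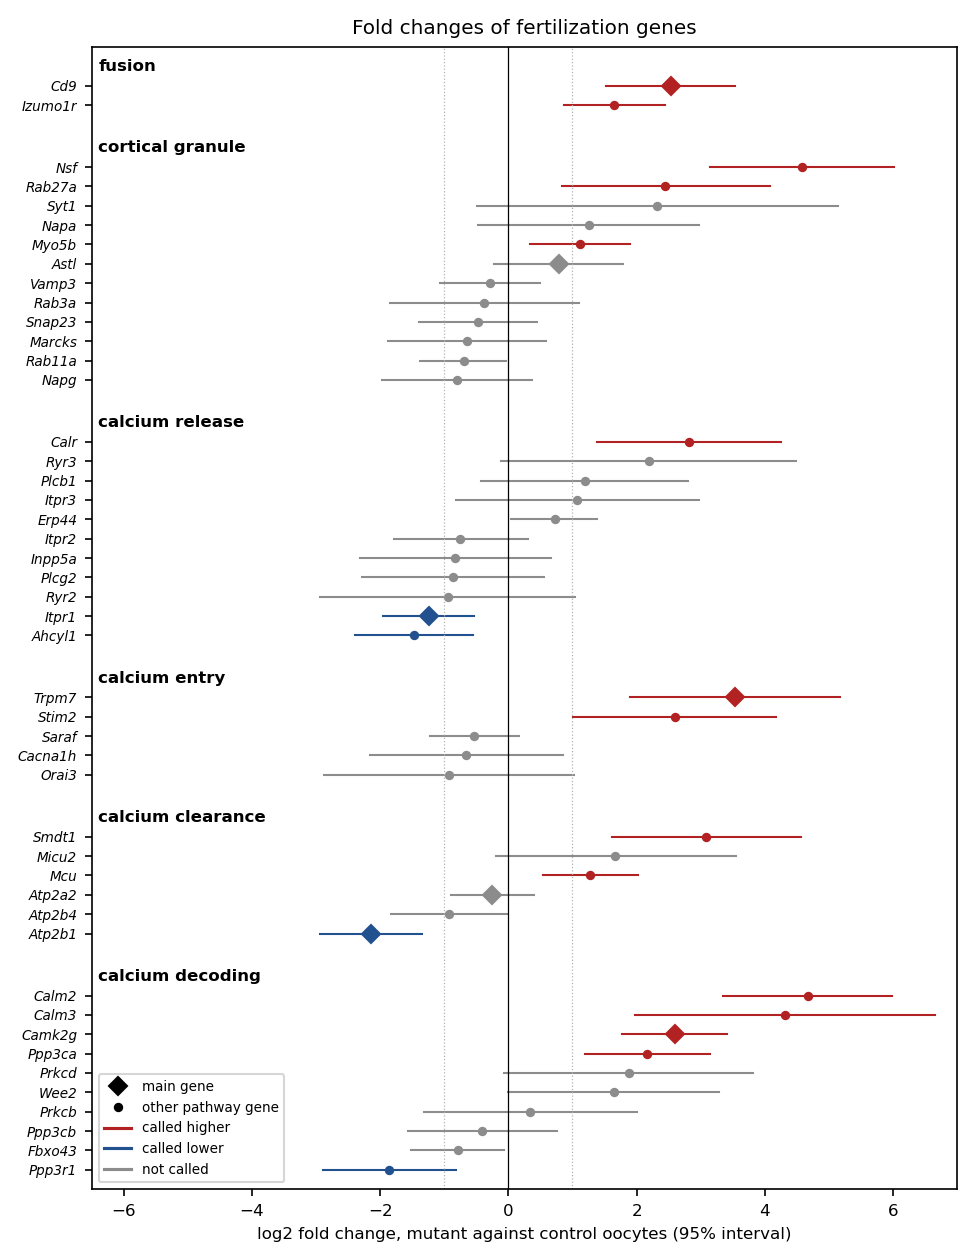
Log2 fold change, mutant over control, with its 95% interval for 46 genes of fertilization, 7 of the 9 main genes (diamonds) and 39 of the others tested (circles), grouped by role. Red marks genes called higher, blue genes called lower and grey genes not called, and dotted lines mark a log2 fold change of 1 in either direction. The main genes span -2.14 for Atp2b1 to 3.54 for Trpm7, and Calm2, Nsf and Calm3 lie farthest to the right.

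Atp2b1 encodes a plasma membrane pump that extrudes calcium. It lies on chromosome 10 from 98914406 to 99026143 on the plus strand. The wt/wt oocytes had 94.5, 174, 198 and 139 CPM and C3 had 102. The mutants had 40, 28, 41.7, 16.1 and 34.4. No mutant reached the lowest control, wt1, and C3 fell inside the wt/wt range. The mean was 141 ± 44.6 (SD, n = 5) in controls and 32 ± 10.4 (SD, n = 5) in mutants, a log2 fold change of -2.14 with a standard error of 0.38 and a 95% interval of -2.94 to -1.35 (edgeR adjusted p = 0.00126).

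Atp2a2 encodes SERCA2, the pump that returns calcium to the endoplasmic reticulum. It is on chromosome 5 from 122453513 to 122502225 on the minus strand. Levels were 1110, 969, 902 and 886 CPM in wt/wt oocytes, 579 in C3 and 708, 817, 889, 604 and 720 in mutants. Mutant and wt/wt oocytes barely overlapped, D3 against wt5, but C3 was below every mutant. Atp2a2 was not called, with means of 889 ± 195 (SD, n = 5) and 748 ± 110 (SD, n = 5) and a log2 fold change of -0.25 (95% interval -0.9 to 0.4, edgeR adjusted p = 0.579). Against C3 alone the value was 0.4, and with library totals in place of TMM it was -0.77. The spread of Atp2a2 was the smallest of the 7 genes in mutants, with an SD of 0.21 on the log2 CPM scale, against 1.19 for Trpm7.

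Of the 12 other genes of calcium clearance, 5 were tested and 3 were called, all higher, 60% beside 25.9% of all genes. Smdt1, which encodes EMRE, a part of the uniporter that takes calcium into mitochondria, rose from 4.42 to 28.7 CPM in wt/wt oocytes and 3.11 in C3 to 14.5 to 226 in mutants (log2 fold change 3.09, edgeR adjusted p = 0.00552). The value for Smdt1 was 3.99 without wt5 and 2.37 without D1. Mcu, the pore of the uniporter, rose from 30.6 to 45.3 CPM in wt/wt and 55.5 in C3 to 54.8 to 134 in mutants (log2 fold change 1.28, edgeR adjusted p = 0.0147). For both genes the groups overlapped. With library totals in place of TMM, Mcu was at 0.9 and not called. Atp2b4, the other plasma membrane pump with reads in every oocyte, had 19.3 to 36 CPM in wt/wt oocytes, 38.9 in C3 and 8.23 to 30.9 in mutants and was not called (log2 fold change -0.92, edgeR adjusted p = 0.12). Per kilobase, the level of Atp2b1 was 8.03 to 10.4 times that of Atp2b4 in wt/wt oocytes, 4.31 times in C3 and 1.83 to 8 times in mutants, and with length of at most 3 kb these ratios were 4.89 to 6.3, 2.62 and 1.11 to 4.87. Atp2b2, Atp2a1, Atp2a3 and the exchanger gene Slc8a1 had no count.

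Camk2g encodes the gamma form of the calcium and calmodulin-dependent kinase that reads the waves and starts the exit from meiosis. It lies on chromosome 14 from 20734875 to 20794088 on the minus strand. Controls had 27.1, 27.6, 33.1 and 64.6 CPM in the wt/wt oocytes and 43.1 in C3. Mutants had 283, 210, 209, 346 and 135. D7, the lowest mutant, was above wt5, the highest control, and C3 was inside the wt/wt range. Means were 39.1 ± 15.6 (SD, n = 5) and 237 ± 80.6 (SD, n = 5), a log2 fold change of 2.6 with a standard error of 0.38 and a 95% interval of 1.78 to 3.41 (edgeR adjusted p = 0.00055). By p it ranked 59 of the 9198 genes tested, the smallest p of the 7. Its 3 sister genes were almost silent, with 1 count in all for Camk2a and for Camk2b and 16 for Camk2d, all of them in mutants.

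Of the 15 other genes of calcium decoding, 10 were tested, 4 were called higher and 1 lower, 50% beside 25.9% of all genes. Calm2 encodes calmodulin, the calcium sensor that switches the kinase on. It had 2.59 to 22 CPM in wt/wt, 5.99 in C3 and 86.8 to 586 in mutants (log2 fold change 4.67, standard error 0.63, edgeR adjusted p = 0.000441). All mutants exceeded all controls, and C3 sat among the wt/wt oocytes. Calm3, which encodes the same protein and was named after its values were seen, was also called higher (log2 fold change 4.32, edgeR adjusted p = 0.0108). It had 0 to 2.21 CPM in controls and 0.997 to 30 in mutants, and D3 and D7 lay inside the control range. Its counts were 0 to 4 in controls and 2 to 197 in mutants, the highest in D4. Calmodulin genes encode the same protein and have processed pseudogenes, and how far the counting could tell their reads apart was not tested, so the values of single genes are uncertain.

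Calcineurin, a phosphatase that calmodulin also activates, had genes that moved in both directions. Ppp3ca, a gene of its catalytic subunit, rose from 4.42 to 13.9 CPM in wt/wt oocytes and 5.99 in C3 to 20.7 to 53.1 in mutants (log2 fold change 2.17, edgeR adjusted p = 0.00405). Ppp3cb, another gene of the catalytic subunit, named after its values were seen, had a similar level in controls and was not called (log2 fold change -0.41, edgeR adjusted p = 0.618). The regulatory gene Ppp3r1 fell from 117 to 272 CPM in wt/wt to 23 to 66.8 in mutants (log2 fold change -1.86, edgeR adjusted p = 0.0129). For Ppp3r1 C3 had 29.1 CPM, inside the mutant range, and against C3 alone the value was 0.53. Wee2, a target of the kinase that inhibits CDK1, and Fbxo43, which encodes the meiotic brake EMI2, were named after their values were seen. Wee2 had 22.4 to 62.4 CPM in wt/wt, 774 in C3 and 403 to 738 in mutants, and its log2 fold change of 1.65 (edgeR adjusted p = 0.127) became 3.87 without C3 (edgeR adjusted p = 1.92e-05) and -0.38 against C3 alone. Fbxo43 was at 249 to 387 CPM in wt/wt, 369 in C3 and 114 to 279 in mutants and was not called (log2 fold change -0.79, edgeR adjusted p = 0.0963).

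**Figure D3:**
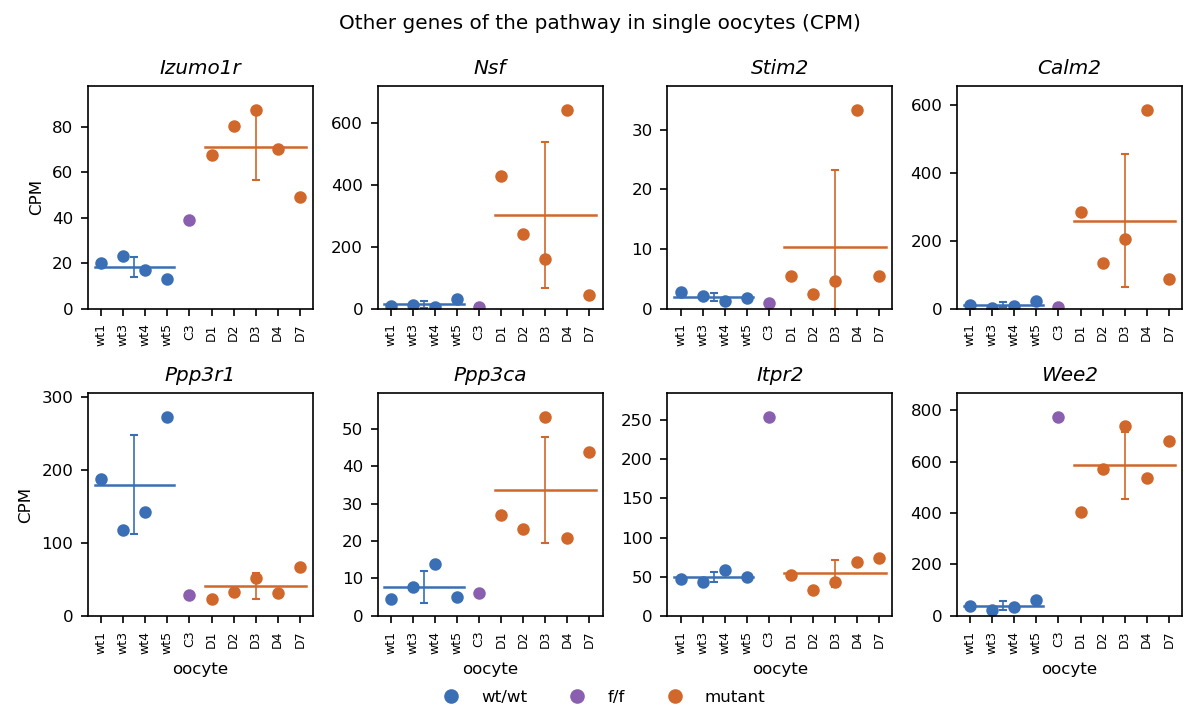
Level of 8 other genes of fertilization in each oocyte, in CPM over library sizes adjusted by TMM, on linear axes from 0, with the mean and SD of the wt/wt and of the mutant oocytes as lines and bars. C3, the f/f oocyte, sits with the wt/wt oocytes for Nsf, Calm2 and Ppp3ca, with the mutants for Ppp3r1, and above both for Itpr2 at 254 and Wee2 at 774.

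Over all roles, 41 of the 68 other genes were tested and 15 were called, 13 higher and 2 lower, which is 36.6% beside the 25.9% of all genes. Their median log2 fold change was 1.07, beside 0.17 for all genes. In 7 of the 41 tested the groups did not overlap, which was so for 16.2% of all genes. With library totals in place of TMM, the median of all genes went from 0.17 to -0.23 and the split of these calls from 13 higher and 2 lower to 11 higher and 4 lower, while the 9 main genes kept 3 higher and 2 lower. Of the 68 other genes, 11 had no count in any oocyte.

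The single f/f oocyte is the control that shares strain and library naming with the mutants. Of the 7 tested genes, it lay inside the wt/wt range for 3, Itpr1, Atp2b1 and Camk2g, inside the mutant range for 1, Astl, between the groups for 1, Trpm7, and below both for 2, Cd9 and Atp2a2. With wt/wt oocytes alone as control, 6 of the 7 were called, the same 5 and Astl, beside 31.5% of all genes. With C3 alone as control, edgeR called none of the 7 and 0.034% of 8811 genes, and 1670 genes had an unadjusted p under 0.05. Of the 7 genes 3 did, Cd9 with a log2 fold change of 3.73, Camk2g with 2.48 and Atp2b1 with -1.64. The 5 called genes kept their direction against C3, while Astl and Atp2a2 turned theirs. That comparison takes the spread from the mutant oocytes alone, since there is 1 f/f oocyte, whose own spread is unmeasured.

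**Figure D4:**
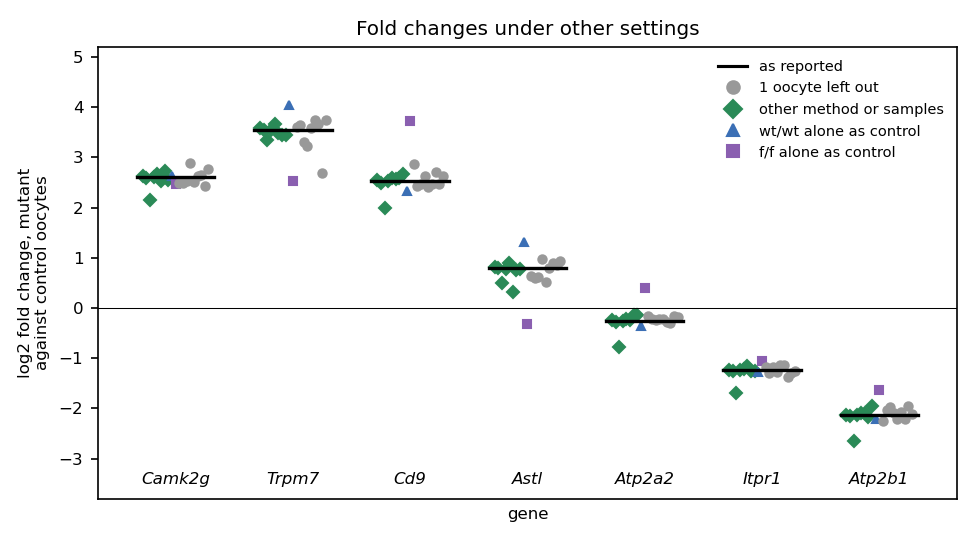
Log2 fold change, mutant over control, for the 7 tested genes under each alternative setting. The black line is the value reported, grey circles leave out 1 oocyte, green diamonds use another method or set of libraries, the blue triangle uses wt/wt oocytes alone and the purple square the f/f oocyte alone as control. The 5 called genes stay on 1 side of 0 throughout, with Trpm7 ranging from 2.53 to 4.04, while Astl and Atp2a2 cross 0 with the f/f oocyte alone.

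Levels of different genes were compared as CPM per kilobase of the longest annotated transcript. In wt/wt oocytes the order of the means was Astl at 232 ± 155 (SD, n = 4), Atp2a2 at 170 ± 18, Atp2b1 at 21.2 ± 6.29, Itpr1 at 15.2 ± 3.09, Camk2g at 10.3 ± 4.83, Cd9 at 5.78 ± 2.63, Trpm7 at 0.415 ± 0.388 and Orai1 at 0.177 ± 0.228, with Stim1 at 0. Neighbours in this order overlapped between oocytes except Atp2a2 with Atp2b1 and Cd9 with Trpm7. In mutant oocytes Astl at 572 ± 225 (SD, n = 5) and Atp2a2 at 132 ± 19.3 again came first. Camk2g at 63.9 ± 21.8 and Cd9 at 28.8 ± 8.91 followed, ahead of Trpm7 at 6.8 ± 6.95, Itpr1 at 6.24 ± 1.92 and Atp2b1 at 4.5 ± 1.46, so that Atp2b1 went from place 3 to place 7 and Camk2g from place 5 to place 3. Among the mutants, Astl, Atp2a2 and Camk2g did not overlap with each other, while neighbours from Camk2g down to Atp2b1 overlapped, and Orai1 and Stim1 each lay below the gene before it. C3 had 730 for Astl, 102 for Atp2a2, 14.3 for Atp2b1, 13.3 for Itpr1, 11.6 for Camk2g and 2.17 for Cd9, the same order as the wt/wt oocytes. With transcript length taken as at most 3 kb, since the cDNA covers no more, Atp2a2 at 322 came ahead of Astl at 232 in wt/wt oocytes. By that length Itpr1 at 20.5 came ahead of Trpm7 at 16.1 in mutants. In C3, Itpr1 at 43.7 then came ahead of Atp2b1 at 34.

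**Figure D5:**
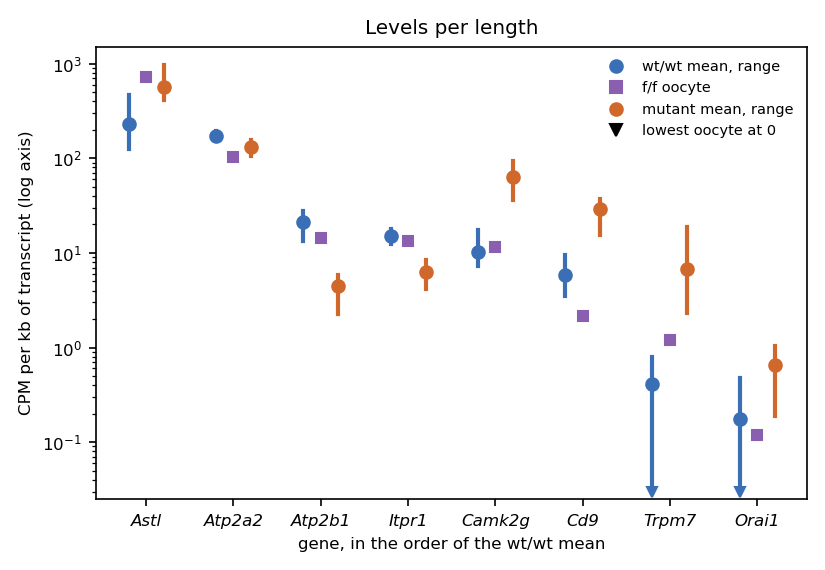
Level per kilobase of transcript, in CPM per kb on a log axis, for 8 of the genes in the order of their wt/wt mean. Circles are the means and vertical lines the ranges of wt/wt and mutant oocytes, squares are the f/f oocyte, and a triangle marks a lowest oocyte at 0. Stim1, at 0 in wt/wt oocytes, is not drawn. Mutant ranges lie below those of wt/wt oocytes for Atp2b1 and Itpr1 and above them for Camk2g, Cd9 and Trpm7.

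For each tested gene the genes whose level ran most closely with it were found by Pearson correlation of log2 CPM over the 10 oocytes, among 9197 other genes. These values share the difference between the groups and are given as a description. Camk2g ran with Nlrp14 (r = 0.991) and Nusap1 (r = 0.981), Itpr1 with Slc6a15 and Mtus1 (both r = 0.982), and Atp2b1 with Rnf130 (r = 0.977) and Zfp329 (r = 0.976). Trpm7 was closest to Stk31 (r = 0.972) and Gclm (r = 0.969), and Cd9 to Sdhc (r = 0.955) and Capzb (r = 0.954). The genes that were not called had lower values, Astl with Fbxw22 (r = 0.943) and Brd3 (r = 0.936) and Atp2a2 with Tiam2 (r = 0.931) and Dirc2 (r = 0.917).

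Whether the counting used the strand was not stated, so it is not known whether reads from an antisense gene were counted with these genes. Exons of a gene on the other strand overlap those of Cd9 (Gm26728), Itpr1 (Gm44101 and Gm44040), Orai1 (Gm2479) and Atp2a2 (Gm43361). No gene was annotated across Astl, Atp2b1 or Camk2g, and across Trpm7 only the processed pseudogene Gm14212, outside its exons.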

How the data were processed

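Counts were deposited by the authors as whole reads per RefSeq gene, without normalization. Per the methods, reads were aligned to mm10 with TopHat and unique best alignments were counted with HTSeq. The submitters' processing notes list TopHat2 2.0.6 and HTSeq 0.5.3p9, whereas the methods name another version of HTSeq. From these counts, libraries sharing an oocyte name were summed (14 libraries, 10 oocytes). The column Oo3C-DNA was taken as the library titled OoC3-DNA. Genes with no count were removed and the top 60% by total count kept, 9198 of 15432. Mutants were tested against controls with edgeR 4.0.16 in R 4.3.3 (TMM, glmQLFit, glmQLFTest, condition as the only term, Benjamini-Hochberg over all genes tested). CPM use TMM-adjusted library sizes, and log2 CPM a prior count of 2. Coordinates and lengths are from GENCODE for GRCm38, promoters from RefSeq. Folr4 is given under its current symbol, Izumo1r. Whether oocytes of a group came from separate females is not stated, so p-values measure only the spread between these samples. The library method carries no molecular identifiers, so amplified reads are not independent molecules and floors cover counting error only. CPM are shares of an oocyte's reads and do not measure its RNA content.

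The genes, the lists and the tests were chosen with earlier results of these data known. Named genes were the 9, Kdm1a, Plcz1, up to 3 higher and 3 lower called genes per role by p, paralogs of the 9, and the 2 genes most correlated with each. Alternatives were DESeq2 1.42.0, library totals, upper-quartile scaling, edgeR's filterByExpr or no filter, adjusted p alone, every library as its own sample without and with a replicate block, 1 library per oocyte, wt/wt or f/f oocytes alone as control, transcript length of at most 3 kb, and leaving out each oocyte. The procedure was also run on counts simulated from the fitted model without a strain difference, which cannot show how strain affects the calls. Values of 2 of the named genes are not reported here. Embryo libraries were not analysed here.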

Additional observations from a re-analysis of the deposited data

Results flagged for a closer look

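In a set of 5 oocytes, 1 value stands apart where its gap to the nearest other, divided by the range, is above Dixon's critical value of 0.71. Of 17 such sets for the 9 genes, 2 did, where chance gives about 1 in 20, that is 0.85 of 17. Trpm7 in D4 had 135 CPM and the next mutant oocyte 40.6, a ratio of 0.796. Stim1 in D4 had the only count of that gene, 0.152 CPM against 0 in the others, a ratio of 1 that rests on a single read.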

How the results depend on the processing

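Across 19 alternative fits for each of the 7 tested genes, 124 of 133 values kept their direction and their side of the threshold, 6 lost the call, 1 gained it and 2 changed sign, and for the other named genes 308 of 356 kept both. Against the f/f oocyte alone none of the genes was called (0 in all, 0 higher, 0 lower), 0 of the other pathway genes and 3 of all genes, and the values that changed sign were Astl at -0.32, Atp2a2 at 0.4, Ppp3r1 at 0.53 and Wee2 at -0.38, in a comparison with 1 control oocyte. Without C3, which is the same as wt/wt alone, Itpr2 changed sign, to 0.12, and leaving out wt3 took it to -0.92. Leaving out each oocyte in turn gave 5 to 6 genes called, 3 to 4 higher and 2 lower each time, 11 to 16 other pathway genes and 1607 to 2885 of all genes. With every library as its own sample and the replicate number of the descriptions as a replicate block, 4 genes were called, 3 higher and 1 lower, with Itpr1 at -1.25 (edgeR adjusted p = 0.0673), 6 other pathway genes and 966 of all genes were called. The labels do not say whether these numbers pair the samples, and this was not tested. Deviations of same-numbered libraries had correlations of 0.08, 0.1 and -0.09 for numbers 3, 4 and 5, and of these only number 4 correlated best with its own. Library totals moved the median over all genes, in log2, from 0.17 to -0.23 and the share of higher genes among all called from 56.8% to 36.6%. With length of at most 3 kb, 8 of 18 levels per kb moved by more than 1 SD, and with library totals 3 of 18. Depth limits Stim1 and Orai1, and the controls for Cd9 and Trpm7.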
